A study of Mus musculus with 21 samples.

Results

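RBBP7 was mapped by chromatin immunoprecipitation and sequencing (ChIP-seq) in the embryonic basal ganglia of CD1 mice at E13.5, which the series' design text calls ganglionic eminences. All 14918 peaks that the authors called for the RBBP7 library against its input were taken, out of 91480 peaks in 6 ChIP lists of the series. The other 5 lists, for RBBP4, MBD3, CHD4, HDAC1 and HDAC2, serve as reference. Each antibody was used on 1 library, so no value for RBBP7 has a replicate, and depth is unknown because the lists give no read counts. The antibody to RBBP7 came from Life Technologies, and the library was paired with input 3 of 3, an input that the RBBP4 library shares. Cells were fixed with 5 mM of the protein crosslinker DSG and then 1% PFA. A further 12 of the 21 samples measured open chromatin (ATAC-seq) at E12.5, also in basal ganglia of the CD1 strain. Embryos were wild type (WT) or carried the Dlx1/2 knockout (KO), with 3 of each, and their cells were sorted by a tag. Cells with the tag (FTpos) stand for the ventricular zone, and cells without it (FTneg) for the zones outside it, the subventricular and mantle zones. All ChIP libraries are from E13.5 embryos with no genotype given in the labels, so RBBP7 was not mapped in the knockout. ChIP peaks do not measure expression, so the labelled tissue could not be checked against its marker genes.

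RBBP7 (also RbAp46) is a WD40-repeat protein that binds histones and passes them to enzymes. It is a shared subunit of several chromatin complexes: the deacetylase complexes NuRD and SIN3, the histone methyltransferase PRC2, the remodeller NURF and the acetyltransferase HAT1. RBBP4 (RbAp48) is its close paralogue and sits in many of the same complexes. The ganglionic eminences make GABAergic neurons under the homeodomain factors DLX1 and DLX2, while the neighbouring cortex makes glutamatergic neurons under factors such as NEUROG2, EOMES and TBR1.

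Fold enrichment, the signal at a peak's summit over the input as the authors' caller gave it, ran from 3.06 to 50.7 in the RBBP7 list, with a median of 6.20 and quartiles of 5.29 and 7.71. The median peak was 427 bp wide (range 280 to 4014). The authors' −log10 q had a median of 8.68, and 5881 peaks (39.4%) reached at least 10. Lists for 3 of the other proteins carry a name that differs from the sample label: the list of the CHD4 sample is named HDAC1, that of the HDAC1 sample HDAC2, and that of the HDAC2 sample CHD4. They are called here by sample label, as CHD4-labelled, HDAC1-labelled and HDAC2-labelled. The RBBP7, RBBP4 and MBD3 lists carry the name of their sample.

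Promoter sequences are shown at the 6 RBBP7 peaks of highest fold enrichment that had their summit within 1 kb of an annotated start. Each sequence is the RefSeq promoter window of the GRCm38.p6 build, the build that mm10 names, from 250 bases before to 50 bases after the start, read 5′ to 3′ on the gene's strand. Capitals mark CG dinucleotides, which were more frequent in gene-start windows with RBBP7 than in those without, as counted further on. The peaks cover all 300 bases of the windows at Rfx4, Dct, Pou2f1 and Tacc3, but 91 of 300 at Cnot9 and 153 of 300 at Exosc8, and the summit lies inside the window at Dct only. The windows lie at chr10:84755798-84756097 (plus strand) for Rfx4, chr14:118052197-118052496 (minus) for Dct, chr1:165934899-165935198 (minus) for Pou2f1, chr5:33657878-33658177 (plus) for Tacc3, chr1:74505810-74506109 (plus) for Cnot9 and chr3:54735315-54735614 (minus) for Exosc8.
Rfx4: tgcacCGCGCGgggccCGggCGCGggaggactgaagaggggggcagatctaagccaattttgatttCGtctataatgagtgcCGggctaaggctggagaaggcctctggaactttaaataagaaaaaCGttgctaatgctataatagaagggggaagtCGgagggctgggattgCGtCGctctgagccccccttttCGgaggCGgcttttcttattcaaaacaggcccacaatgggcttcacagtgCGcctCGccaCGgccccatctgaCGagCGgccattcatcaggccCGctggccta
Dct: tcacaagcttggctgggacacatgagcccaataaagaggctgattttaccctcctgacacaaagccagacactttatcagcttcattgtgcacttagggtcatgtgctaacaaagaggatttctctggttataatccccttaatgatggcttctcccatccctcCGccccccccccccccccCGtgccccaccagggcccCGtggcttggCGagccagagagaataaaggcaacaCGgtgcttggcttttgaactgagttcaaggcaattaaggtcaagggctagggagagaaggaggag
Pou2f1: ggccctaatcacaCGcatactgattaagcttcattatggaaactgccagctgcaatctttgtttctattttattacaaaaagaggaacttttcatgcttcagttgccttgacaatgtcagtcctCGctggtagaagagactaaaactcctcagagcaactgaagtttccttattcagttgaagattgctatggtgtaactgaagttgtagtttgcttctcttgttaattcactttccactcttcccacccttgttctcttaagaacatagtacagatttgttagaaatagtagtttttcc
Tacc3: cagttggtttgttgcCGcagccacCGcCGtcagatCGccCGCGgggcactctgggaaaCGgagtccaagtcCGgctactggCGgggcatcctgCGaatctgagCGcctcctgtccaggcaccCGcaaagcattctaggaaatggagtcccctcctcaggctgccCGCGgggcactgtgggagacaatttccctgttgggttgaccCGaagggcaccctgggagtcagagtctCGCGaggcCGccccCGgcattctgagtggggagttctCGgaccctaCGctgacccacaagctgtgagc
Cnot9: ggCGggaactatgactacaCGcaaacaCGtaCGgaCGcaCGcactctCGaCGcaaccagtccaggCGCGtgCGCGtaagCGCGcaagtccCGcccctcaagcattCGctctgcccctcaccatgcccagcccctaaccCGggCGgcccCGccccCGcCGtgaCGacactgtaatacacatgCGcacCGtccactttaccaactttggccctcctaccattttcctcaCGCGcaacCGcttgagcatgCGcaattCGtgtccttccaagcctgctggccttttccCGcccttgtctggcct
Exosc8: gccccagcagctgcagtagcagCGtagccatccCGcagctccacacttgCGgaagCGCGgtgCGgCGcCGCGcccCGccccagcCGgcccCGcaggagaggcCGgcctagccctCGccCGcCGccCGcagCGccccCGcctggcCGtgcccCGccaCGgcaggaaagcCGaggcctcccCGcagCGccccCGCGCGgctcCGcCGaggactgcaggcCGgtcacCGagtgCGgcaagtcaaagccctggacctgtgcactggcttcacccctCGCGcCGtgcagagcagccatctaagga

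The Rfx4 window held 20 CG dinucleotides and lay wholly inside an RBBP7 peak of 18.7-fold enrichment, whose summit was 359 bp upstream of the start. Rfx4 encodes a winged-helix factor of the RFX family that is needed for patterning of the dorsal midline of the brain. The Dct window held 5 CG dinucleotides, and the peak over it reached 18.3-fold with its summit 34 bp upstream. Dct encodes dopachrome tautomerase, an enzyme of melanin synthesis that is also a marker of telencephalic progenitors. At Pou2f1, which encodes the POU factor OCT1, the window held only 2 CG dinucleotides and 38% G and C, and the peak reached 17.4-fold with its summit 462 bp upstream. That summit still lay inside the annotated gene, so the listed start is an internal one and not the outer end of Pou2f1. The remaining windows were CG-rich: 21 at Tacc3 (15.1-fold), 30 at Cnot9 (12.9-fold) and 36 at Exosc8 (12.6-fold). Tacc3 encodes a spindle protein, Cnot9 a subunit of the CCR4-NOT deadenylase and Exosc8 a subunit of the RNA exosome. The strongest peaks at starts thus lay on windows that differed widely in CG content. Peaks at Dazap1 (12.3-fold), Tprn (12.3-fold), Psat1 (12.1-fold) and Zswim6 (11.7-fold) complete the 10 highest at starts. Each of these 10 overlapped an RBBP4 and an MBD3 peak, and 8 of 10 overlapped a peak of all 5 other lists.

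Over the whole list most RBBP7 peaks lay away from gene starts. A summit within 1 kb of the annotated start of a curated protein-coding gene was found for 2197 peaks (14.7%, 95% Wilson interval 14.2 to 15.3). Summits inside a gene but not at a start numbered 6242 (41.8%), summits outside genes but within 50 kb of one 2685 (18%), and summits over 50 kb from any gene 3794 (25.4%). RBBP7 had the lowest share at starts of the 6 lists: RBBP4 had 29.5%, the HDAC2-labelled list 31.4%, MBD3 37.2%, the HDAC1-labelled list 49% and the CHD4-labelled list 49.5%. Against the RBBP4 list, called with the same input, the odds of lying at a start were 0.412 times as high for an RBBP7 peak (two-sided Fisher's exact test over peaks, p = 1.56e-273). When both lists were cut to their 5517 peaks of highest −log10 p, the odds ratio was 0.159. Peaks within a library are not replicates, so this test compares 2 lists and not the 2 proteins across embryos, and intervals cover counting error only.

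RBBP7 peaks at starts were also the weaker ones. Median fold enrichment was 5.46 at starts, 6.39 inside genes, 6.21 within 50 kb of a gene and 6.63 further away. At starts the highest value was 18.7, against 50.7 inside genes and 32.9 over 50 kb from a gene. The curve for starts lies under the other 3 across the range of enrichment, and the peaks over 50 kb from a gene have the highest share at or above 10-fold.

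**Figure D1:**
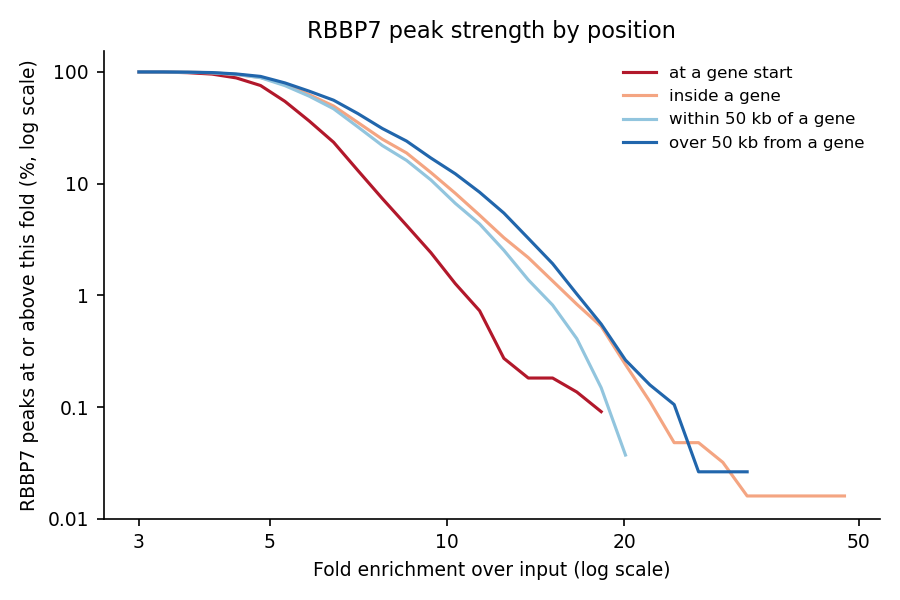
Percent of RBBP7 peaks (y, log scale) with at least a given fold enrichment over input (x, log scale), in 4 classes of position from 1 library. The class at gene starts (2197 peaks, highest value 18.7) falls away first, and the class over 50 kb from a gene (3794 peaks) lies above it at every fold drawn beyond 5.

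The share at starts fell with peak strength in 9 of 9 steps. When the RBBP7 list was divided into deciles by fold enrichment, 28.4% (26.2 to 30.8) of the weakest decile lay at starts, 13.8% of the one ranked 5 and 2.68% (1.98 to 3.63) of the strongest, which begins at 9.77-fold. The share over 50 kb from a gene went the other way, from 18.2% in the weakest decile to 37.5% in the strongest. Median peak width was 333.5 bp in the weakest decile and 806 bp in the strongest. Deciles of the RBBP4 list held between 25.8% and 35.7% at starts, without such a fall. The input signal at starts was not analysed here, and its part in these values was not tested.

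**Figure D2:**
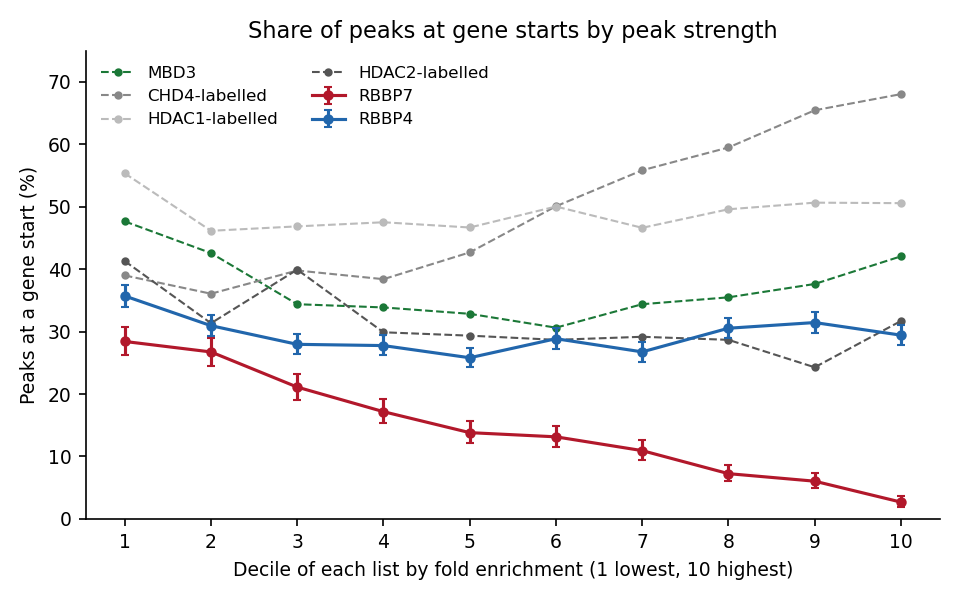
Percent of peaks at a gene start (y) in deciles of each ChIP list by fold enrichment (x, 1 lowest to 10 highest), with 95% Wilson intervals for RBBP7 and RBBP4 and 1 library per list. The RBBP7 line goes from 28.4% to 2.68%, while the RBBP4 line stays between 25.8% and 35.7%.

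The 15 peaks of highest enrichment held no gene start. The highest, 50.7-fold, was inside Cacng4 on chromosome 11 (107783849 to 107784791), which encodes an auxiliary subunit of AMPA-type glutamate receptors, and a second peak of 24-fold lay just beside it. A peak of 32.9-fold lay 772189 bp from the nearest gene, Cenpc1, on chromosome 5. On the same chromosome a peak of 32.0-fold lay inside Epha5 (84152922 to 84154098), an ephrin receptor of axon guidance. Acvr1b, an activin receptor, held a peak of 27.3-fold. Some peaks of this set lay in wide intergenic stretches beside genes of forebrain transcription factors: 280591 bp from Sall1 (25.2-fold) and 685103 bp from Pou3f2 (23.7-fold). Other nearest genes in the set were Tmem161b, Grik2, Hdgfl1, Atp8a2, BC052040, Ralgapa2 and Pdcd1. Of the 15 peaks, 8 were inside genes and 7 were over 100 kb from one. Peaks of all 5 other lists overlapped 10 of the 15, and an RBBP4 peak overlapped 14. The exception was the Grik2 peak (23.9-fold), which overlapped a peak of MBD3 only. The widest RBBP7 peak, 4014 bp and 21.1-fold, lay 218858 bp from Prkd1, followed by peaks 120021 bp from Usp25 (3410 bp) and 437174 bp from Ccnh (3359 bp).

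RBBP7 peaks overlapped the RBBP4 list more than any other, the longest of the 6. An RBBP4 peak overlapped 9776 RBBP7 peaks by at least 1 bp (65.5% of the RBBP7 list), and 31.3% of the RBBP4 list overlapped an RBBP7 peak. With each list cut to its 5517 peaks of highest −log10 p the share of RBBP7 peaks fell to 33.9%. With a reciprocal overlap of 50% on the full lists it was 38.5%. Summits of overlapping pairs were a median of 85 bp apart. The fold enrichments of these pairs had a Spearman's rho of 0.198 across peaks, which share an input and are not independent. MBD3 peaks overlapped 33.4% of RBBP7 peaks, CHD4-labelled peaks 33.1%, HDAC1-labelled peaks 23.8% and HDAC2-labelled peaks 16.5%. These shares move with the length of each list, and the share of each of those lists that overlapped RBBP7 was 41.9%, 26.7%, 31.9% and 45.3% in the same order. RBBP7 peaks that overlapped none of the 5 other lists numbered 4867 (32.6%), and those that overlapped all 5 numbered 1388 (9.30%).

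Sharing depended on position. At starts 96.6% of RBBP7 peaks overlapped an RBBP4 peak and 2.37% overlapped no other list. Inside genes these shares were 61.0% and 36.8%, and over 50 kb from a gene they were 56.2% and 41.9%. Among RBBP7 peaks that overlapped no other list, 1.07% lay at starts, against 40.4% of those that overlapped 4 other lists and 29.7% of those that overlapped all 5. In the strongest decile 82.8% overlapped RBBP4 and 21.3% overlapped all 5 lists. Strong peaks that overlapped no other list did occur. The highest lay inside Wwp1 (20.7-fold), which encodes a HECT ubiquitin ligase, 90059 bp from Cntn6 (18.7-fold), which encodes a contactin adhesion molecule, and 278507 bp from Aldoart1 (18-fold).

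Summits at starts were centred on the start itself. The median RBBP7 summit was 2 bp upstream (quartiles 207 bp upstream and 194 bp downstream), 50.2% were upstream, and 59.5% lay within 250 bp of the start. RBBP4 summits had a median of 24 bp downstream with 44.6% upstream, and CHD4-labelled summits a median of 184 bp downstream with 25.4% upstream.

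**Figure D3:**
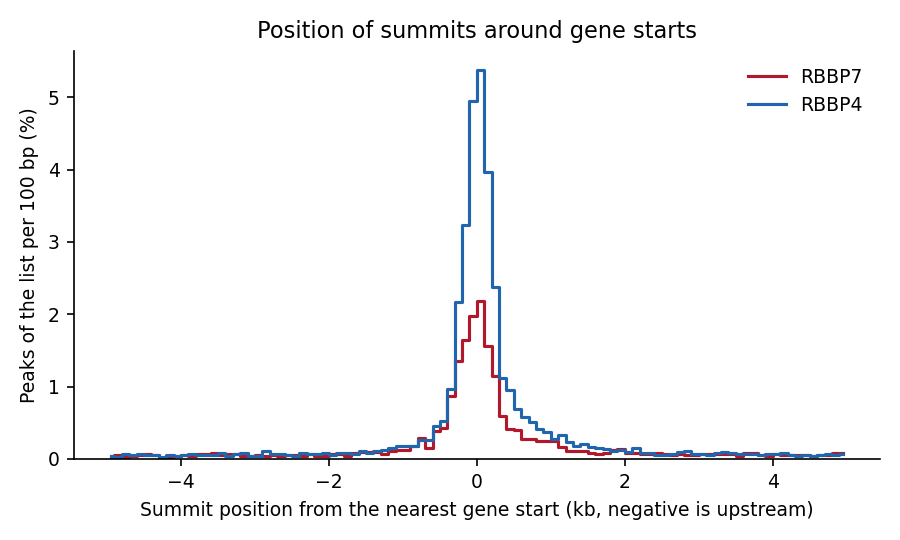
Percent of each list's summits per 100 bp (y) by position around the nearest annotated gene start (x, kb, negative upstream) for RBBP7 and RBBP4, 1 library each. Both lines peak at the start, with a median position of −2 bp for RBBP7 and 24 bp for RBBP4, and the RBBP7 peak is lower.

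Genes with RBBP7 at their start were nearly all among those with RBBP4. Of 16783 curated protein-coding genes with a start in the table, 2122 had an RBBP7 summit within 1 kb (12.6%) and 8073 an RBBP4 summit (48.1%). RBBP4 was also at the start of 2023 of the 2122 genes (95.3%), while RBBP7 was at 25.1% of the starts with RBBP4. An RBBP7 summit anywhere from 50 kb before to 50 kb after the gene was found for 9748 of 20953 genes (46.5%). These percentages are the background for the gene lists that follow.

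Windows of 300 bases at starts with RBBP7 were richer in CG than those without. The median number of CG dinucleotides was 24 (quartiles 16 and 33) over 2462 windows with RBBP7, 12 over 17931 without, 23 over 7243 with RBBP4 but not RBBP7, and 5 over 10688 with neither. The share of G and C had medians of 65.0% with RBBP7 and 55.7% without. The GC box GGGCGG, searched on both strands, was in 72.6% of windows with RBBP7, 44.3% without, 70.6% with RBBP4 but not RBBP7, and 47.7% of all 20393 windows. TATAAA was in 5.73% of windows with RBBP7, 5.69% of those with RBBP4 alone and 12.4% of all. The homeodomain core TAATTA was in 2.23% of windows with RBBP7 and 4.45% of all. Among the 160 windows whose RBBP7 peak reached at least 8-fold it was in 13 (8.13%, 4.81 to 13.4). Windows with neither RBBP7 nor RBBP4 had it in 6.71%, which lies inside that interval, and the difference was not tested. In composition and in these motifs, windows with RBBP7 were close to those with RBBP4 alone. CAGCTG (15% with RBBP7, 15.8% of all), CACGTG (9.14% and 8.05%) and CCAAT (39.3% and 38.4%) were near the share of all windows. The remaining letters searched were ACAAAG (12% and 16.7%), TGACTCA (2.60% and 4.74%) and TTGGCA (11.1% and 13.0%). Each is a count of letters, and GGGCGG holds a CG.

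Genes of the cortical glutamatergic lineage had the highest share of starts with RBBP7 among 15 lists of genes, chosen for this tissue and its other cell types. An RBBP7 summit lay at 12 of 15 of their starts (80.0%, 54.8 to 93.0), beside 12.6% of all genes, and an RBBP4 summit at 10 of 15, beside 48.1%. The strongest of these RBBP7 peaks were at Fezf2 (10.2-fold), Neurod2 (8.52-fold), Neurog2 (7.65-fold) and Tbr1 (7.35-fold). Fezf2 encodes a zinc-finger factor of deep-layer neurons, Neurod2 and Neurog2 encode bHLH factors, and Tbr1 a T-box factor. Starts with RBBP7 also included Eomes, Neurog1, Neurod1, Neurod6, Slc17a6, Emx1, Emx2 and Lhx2. The 3 without it were Slc17a7, Lhx9 and Nhlh1. At Tbr1, Neurod2 and Neurod6 no RBBP4 summit lay within 1 kb of the start. That combination occurred at 99 of 16783 genes. It rests on the distance of summits: the RBBP7 peak at the Neurod2 start (8.52-fold) did overlap an RBBP4 peak.

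The genes of this list had 2 to 13 RBBP7 peaks within 50 kb, with a median of 6, beside a median of 0 for all genes. Neurod1, Slc17a6, Slc17a7 and Lhx9 had 2 each, and Lhx2 and Nhlh1 3 each. Around Neurod2, which spans a few kilobases on chromosome 11, 13 peaks lay within 50 kb, with folds between 5.07 and 8.89. Of these 13, 2 lay inside the gene, at 6.51-fold and 8.52-fold, and 2 others overlapped no other list. Fezf2 had 9 peaks within 50 kb, of which the highest, 15.6-fold, lay 46805 bp from the gene and overlapped all 5 other lists. A peak of 13.7-fold, 878 bp from Fezf2, also overlapped all 5. Neurog2 had 7 peaks, the highest 12.7-fold at 6810 bp from the gene. Peaks of 9.70-fold and 8.71-fold, at 10761 and 16769 bp from Neurog2, overlapped no other list. Eomes had 7 peaks of 4.65-fold to 7.62-fold, each shared with RBBP4. Across the 16 genes of the list 89 distinct RBBP7 peaks lay within 50 kb, beside 108 RBBP4 peaks, a ratio of 0.824. Over the 2 whole lists that ratio was 0.501.

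GABAergic lineage genes had a smaller share than the glutamatergic list, though above that of all genes. An RBBP7 summit lay at 13 of 30 starts (43.3%, 27.4 to 60.8), beside 12.6% of all genes. An RBBP4 summit lay at 25 of 30, beside 48.1%. Within 50 kb of the 38 genes there were 156 RBBP7 and 368 RBBP4 peaks, a ratio of 0.424. All 38 had an RBBP4 peak within 50 kb, beside 16124 of all 20953 genes. No RBBP7 peak lay in that range for 6 of the 38, beside 11205 of all 20953. Among the 6 were Gad1, the enzyme of GABA synthesis, Lhx6 and Maf, factors of migrating interneurons, and the neuropeptide genes Sst and Npy. Gad1 had 7 RBBP4 peaks in that range, Lhx6 6, Maf 6, Npy 2 and Sst 1. Gad2 and Slc32a1, the vesicular GABA transporter, each had 1 RBBP7 peak, of 5.47-fold and 4.88-fold, beside 10 and 9 RBBP4 peaks. The highest RBBP7 folds at starts of the list were at Dlx1 (7.09), Ebf1 (6.68), Sox6 (6.43) and Six3 (6.37). Some genes without a peak at the start had higher folds elsewhere, such as 19.6-fold inside Erbb4, a neuregulin receptor, and 11.3-fold in or within 50 kb of Bcl11b. The difference between the glutamatergic and GABAergic lists was not tested.

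At the Dlx genes RBBP7 peaks were few beside those of RBBP4, though above the median of 0 peaks for all genes. Within 50 kb of Dlx1 and Dlx2, 4 RBBP7 peaks of 7.09, 5.45, 5.82 and 5.04-fold lay among 14 RBBP4 peaks. The strongest lies at the Dlx1 start (71529215 to 71529719 on chromosome 2), the one of 5.45-fold inside Dlx1, and the other two between the 2 genes. Dlx5 and Dlx6 shared 3 RBBP7 peaks, of 5.17, 6.16 and 5.52-fold, beside 17 RBBP4 peaks. Nkx2-1, the homeodomain factor of the medial eminence, held 3 RBBP7 peaks of 5.83 to 6.58-fold. Each of these 10 peaks overlapped an RBBP4 peak and was below 7.71-fold, the upper quartile of the RBBP7 list.

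Progenitor genes of the ventricular zone had RBBP7 at 9 of 17 starts (52.9%), beside 12.6% of all genes. Within 50 kb it was near 22 of 22 genes, beside 46.5% of all genes. The folds at starts were highest at Fabp7 (9.85), a lipid-binding protein of radial glia, Gsx1 (7.11), Hes5 (6.47) and Sox2 (6.14). Sox2 had 9 RBBP7 peaks within 50 kb. The 2 highest, 10.1-fold and 10.5-fold, lay 9864 and 15605 bp from the gene. Hes1, a Notch effector whose start is not in the table, also had 9, from 4.11 to 8.73-fold, and 3 of these overlapped no other list. Pax6 had no RBBP7 peak at its start but one of 18.4-fold within 50 kb. Of the Notch pathway genes 6 of 15 starts had RBBP7 and 15 of 15 had RBBP4, beside 12.6% and 48.1% of all genes. The highest RBBP7 folds were at Hes6 (11.6-fold), an inhibitor of HES1, Rbpj (7.25), the DNA-binding effector of Notch, Hes5 (6.47) and the ligand Dll1 (6.10).

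Hedgehog pathway genes had no RBBP7 at their few listed starts, but most had it nearby. An RBBP7 summit lay at 0 of 8 starts. That allows a share of up to 32.4%, a range that includes the 12.6% of all genes. Within 50 kb, RBBP7 was near 11 of 12 genes, beside 46.5% of all genes. RBBP4 was near 12 of 12, beside 16124 of all 20953. The median length of these genes was 69.5 kb, beside 17.8 kb for all genes, so that range covers more sequence. The highest RBBP7 peaks were 13.0-fold near Gli3, 11-fold near Cdon, 10.5-fold near Gli2 and 10.2-fold near Smo. Axon guidance genes had RBBP7 at 9 of 13 starts, beside 12.6% of all genes, led by Ephb1 (9.48), Efna5 (6.78), Robo2 (6.68) and Slit3 (5.82). RBBP7 was near 18 of 18 of these genes, beside 46.5% of all genes. They are long, with a median of 366.2 kb beside 17.8 kb for all genes, so the count within the gene and 50 kb around it covers more sequence. Wnt pathway genes had RBBP7 at 5 of 10 starts, beside 12.6% of all genes. These were Axin2 (9.55), a feedback inhibitor, Fzd1 (7.76), Lef1 (5.66), Sfrp2 (5.13) and Wnt7a (5.09). Of the Groucho corepressor genes, Tle1 (8.71) and Tle4 (6.60) had RBBP7 at the start among 5. The interval of that share, 11.8 to 76.9%, includes the 12.6% of all genes. Tle4 had 9 peaks within 50 kb, of which one inside the gene reached 19.1-fold, and 3 of the 9 overlapped no other list.

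Genes of the NuRD subunits themselves had RBBP7 at 4 of 11 starts (interval 15.2 to 64.6%), beside 12.6% of all genes. The 4 were Mbd3, Hdac2, Rbbp4 and Chd4, all of 6.30 to 6.87-fold. RBBP4 was at 10 of those 11 starts, beside 48.1% of all genes. Around Rbbp7 itself, on the X chromosome, neither list had a peak within 50 kb. Genes of other complexes that hold RBBP4 or RBBP7 had RBBP7 at 4 of 20 starts. The interval of that share, 8.07 to 41.6%, includes the 12.6% of all genes. The 4 were the PRC2 genes Jarid2 (9.82) and Ezh2 (4.59), the NURF gene Bptf (6.49) and Sin3a (5.01). Cell cycle genes had RBBP7 at 2 of 11 starts, Cdkn1b (7.56) and Ccne1 (4.75). Their interval, 5.14 to 47.7%, also includes 12.6%. Genes of other cell types were near or under the background of 12.6%. Oligodendrocyte and astrocyte genes had RBBP7 at 1 of 7 starts (Nkx2-2, 5.29), and 0 of 7 endothelial and mural, 0 of 5 microglial and 0 of 8 housekeeping starts had it. Upper limits for these counts of 0 are 35.4%, 43.4% and 32.4%. Within 50 kb, RBBP7 was near 4 of 10 housekeeping genes, 6 of 12 endothelial and mural and 4 of 8 microglial genes, close to the 46.5% of all genes.

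**Figure D4:**
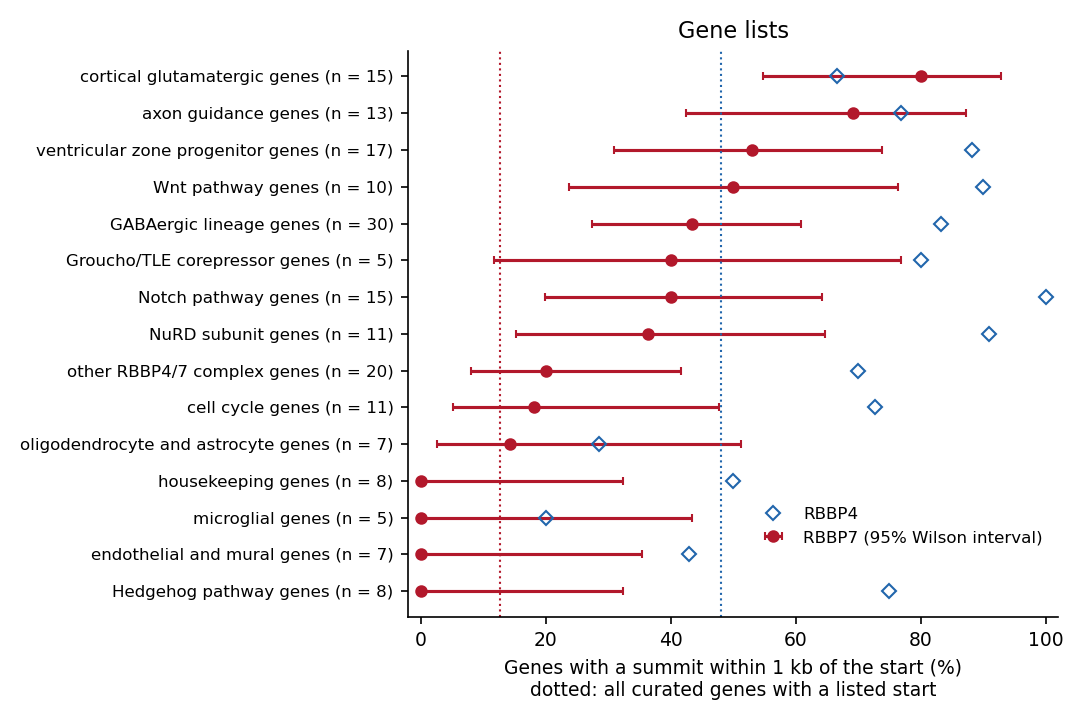
Percent of each list's genes with a summit within 1 kb of the start (x) for RBBP7 (filled, 95% Wilson interval) and RBBP4 (open), with the number of starts per list in brackets and the shares of all genes as dotted lines. RBBP7 ranges from 0 of 8 Hedgehog starts to 12 of 15 cortical glutamatergic starts, the one list drawn in which it is above RBBP4.

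Some long developmental genes held many RBBP7 peaks. By nearest gene within 50 kb, Auts2 had 37 peaks, Gse1 33, Nfia 27, Tenm4 24, Robo2, Zfp423 and Tenm3 23 each, Tenm2 21, Dab1 20 and Nfib 19. Together these 10 genes held 250 peaks (1.68% of the list). Of the 5193 genes that were nearest to at least 1 peak in that range, 2970 had 1 peak and 91 had at least 10. Length differs between them: peaks inside Gse1, which encodes a coiled-coil protein found with histone deacetylase complexes, numbered 9.35 per 100 kb, beside 0.766 per 100 kb over all genes. Density was 6.66 in Zfp423, 6.46 in Nfib and 4.81 in Nfia, the last 2 encoding nuclear factor I proteins. The long genes Robo2 and Tenm3 held 1.48 and 1.46 per 100 kb. Auts2, a gene of neurodevelopment whose product joins a Polycomb complex, held 3.26 per 100 kb, with a highest fold of 17.4, and 12 of its 37 peaks overlapped no other list. In Tenm2 14 of 21 and in Robo2 13 of 23 peaks overlapped no other list, against 5 of 33 in Gse1.

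Across chromosomes the X stood lowest, with 150 RBBP7 peaks (1.01%) or 16.6 per 100 curated genes. The autosomes ranged from 36.1 on chromosome 7 to 113 on chromosomes 12 and 18. RBBP4 had 49.3 per 100 genes on the X, also its lowest. The table of starts has no entry for chromosome 18, where 568 RBBP7 peaks lie, and without that chromosome 15.3% of RBBP7 peaks were at starts. An RBBP7 summit lay within 1 kb of 36 of 1005 RefSeq miRNA hairpins (3.58%), and an RBBP4 summit within 1 kb of 104. The highest of the 36 folds was 10.6, at Mir5710.

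RBBP7 peaks were common in regions that were more open in FTneg cells of the Dlx1/2 knockout and scarce in regions that were more open in WT. The authors' lists, each of 3 embryos per genotype combined, hold 727 KO-higher and 53 WT-higher regions for FTneg. Of these, 3 KO-higher and 0 WT-higher regions lay on chromosome Y, and the sex of the embryos was not examined. An RBBP7 peak overlapped 315 of 727 KO-higher regions (43.3%, 39.8 to 47.0) and 3 of 53 WT-higher regions (5.66%, 1.94 to 15.4). The odds ratio was 12.7 (two-sided Fisher's exact test over regions, p = 3.4e-09; Benjamini-Hochberg adjusted over the 6 ChIP lists, 2.04e-08). RBBP4 peaks overlapped 66.0% of KO-higher and 71.7% of WT-higher regions, an odds ratio of 0.767 (Fisher's exact test, adjusted p = 0.564). For MBD3 it was 1.94 (22.6% of WT-higher regions, Fisher's exact test, adjusted p = 0.158). It was 1.25 for the CHD4-labelled, 1.1 for the HDAC1-labelled and 1.50 for the HDAC2-labelled list, and none of these passed 0.05. Whether the RBBP7 ratio differs from those of the other lists was not tested. Regions are not replicates, so the test compares lists of regions and not embryos.

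The 3 WT-higher FTneg regions with RBBP7 lay at Dlx1, next to Dlx2, and 145308 bp from Kcnn2. The first 2 fall at the locus targeted in the knockout, where 5 WT-higher regions lie. Without those 5, RBBP7 peaks overlapped 1 of 48 WT-higher regions, an odds ratio of 35.9 (Fisher's exact test, p = 2.2e-10). Restricted to regions whose area reached 1000, RBBP7 overlapped 70 of 152 KO-higher and 3 of 10 WT-higher regions, an odds ratio of 1.99 (Fisher's exact test, p = 0.514). The area is the authors' sum of −log10 p over a region, and their lists start at 500.

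In FTpos cells, RBBP7 peaks overlapped 1 of 12 KO-higher regions (8.33%) and 9 of 33 WT-higher regions (27.3%), an odds ratio of 0.242 (Fisher's exact test, p = 0.246, adjusted 0.246). Of these 9 regions, 2 lay at Dlx1 and Dlx2, and the others were nearest to Zfp608, Rab31, Gpm6a, Tnfsf4, Flrt2, Dync1i2 and Itga1. RBBP4 overlapped 29 of the 33 and 1 of the 12 (adjusted p = 8.64e-06 by Fisher's exact test). The difference between FTneg and FTpos was not tested, and the labels number the embryos alike in both fractions.

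**Figure D5:**
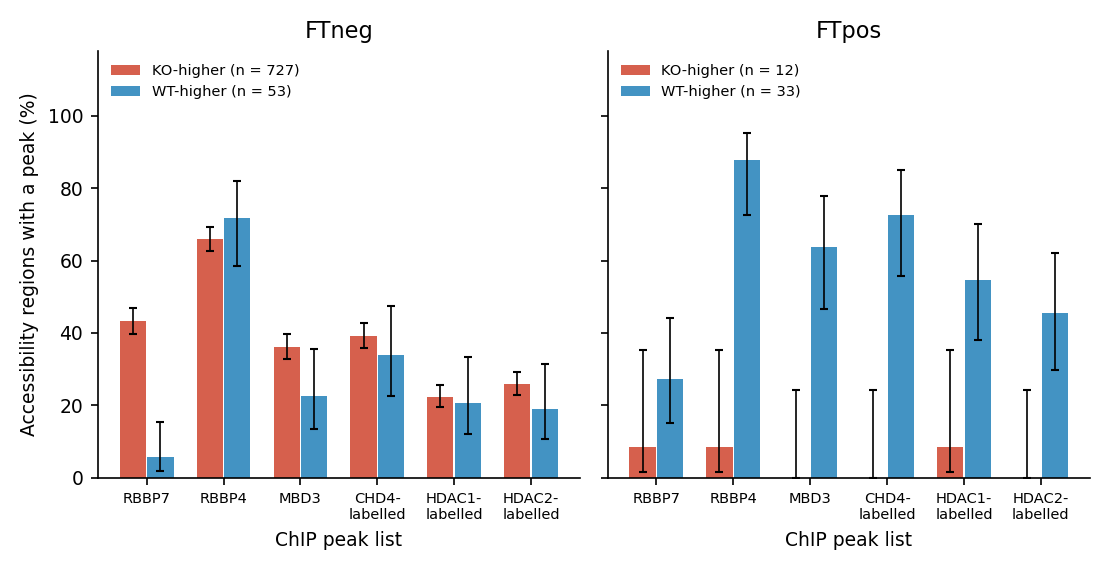
Percent of accessibility regions that overlap a peak (y) for each ChIP list (x), in KO-higher and WT-higher regions of FTneg (left) and FTpos cells (right), with 95% Wilson intervals over regions. In FTneg cells the RBBP7 bars stand at 43.3% of 727 and 5.66% of 53 regions, while the RBBP4 bars stand at 66.0% and 71.7%.

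The RBBP7 peaks in KO-higher FTneg regions were stronger than the rest of the list and mostly away from starts. There were 322 of them (2.16% of the list), with a median fold of 7.53 against 6.20 for the rest, and 4 lay at gene starts (1.24%). A further 143 lay inside genes (44.4%, beside 41.8% of the whole list) and 122 over 50 kb from a gene (37.9%, beside 25.4%). The strongest decile of the RBBP7 list contributed 88 of the 322, which is 5.90% of that decile (4.81 to 7.21), against 1.41% (0.922 to 2.14) of the weakest. Peaks of the strongest decile were also wider, with a median of 806 bp against 333.5 bp. The part of width in these shares was not tested. Of the 315 regions with RBBP7, 95 overlapped peaks of all 5 other lists as well and 18 overlapped no other ChIP list. The region of largest area with RBBP7 (4771) lay 219298 bp from Prkd1 on chromosome 12, under the widest RBBP7 peak of the list. Next by area were regions inside Ap3b1 (2655, RBBP7 8.32-fold), 1281700 bp from Cited2 (2538, 6.92-fold) and 16160 bp from Zfp324 (2345, 5.08-fold). Of the 10 largest, 2 were in Auts2, under RBBP7 peaks of 14.6-fold and 8.41-fold. A region inside Hat1 (2139, 6.06-fold), in the gene of a histone acetyltransferase that binds RBBP7, lay 109 kb from Dlx1, beside the locus targeted in the knockout. Within 1 Mb of that locus there were 4 KO-higher FTneg regions, of which the 2 nearest to Hat1 had RBBP7. The rest of the 10 largest regions with RBBP7 were nearest to Tmem229a, Fbxl17 and Pdcd1, on other chromosomes than Dlx1.

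Around the listed genes, RBBP7 peaks in KO-higher regions were found in most groups. Of the 19 KO-higher FTneg regions nearest to a GABAergic lineage gene, 8 had RBBP7, at Foxp2, Isl1, Lhx8, Sox4, Sox6, Sp8 and Zeb2, which is close to the 43.3% of all KO-higher regions. For progenitor genes it was 6 of 10 (Gli3, Gsx1, Hes1 and Sox9), for Groucho genes 4 of 5 (Tle1 and Tle4), for Hedgehog genes 3 of 3 (Gas1 and Gli3) and for axon guidance genes 5 of 10 (Dcc, Epha4, Plxna2 and Robo1). For cortical glutamatergic genes it was 1 of 2, at Eomes. Macrod2 and Tmem161b each had 3 of 3 nearby KO-higher regions with an RBBP7 peak, and Zfp608 3 of 4. With so few regions per group, no group was tested against the 43.3%.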

How the data were processed

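Reads were processed on mm10 with MACS2 2.2.7.1, Genrich, BWA, deepTools and SAMtools 1.10, as listed in the submitters' processing notes; the settings of each tool are not given in the sources used here. The authors deposited 1 list of peaks per ChIP library, with fold enrichment over input as a ratio and −log10 p and q per peak. Their deposited accessibility regions carry a score, the area under −log10 p. Python 3.11.15 with scipy 1.17.1 was used. A peak was at a start where its summit lay within 1 kb of a RefSeq start (GRCm38.p6, 16783 of 20953 curated genes, 80.1%); lists overlapped by at least 1 bp. Shares have 95% Wilson intervals, and 2 shares were compared by Fisher's exact test. The overlap, nearest-start and nearest-gene steps were checked on simulated intervals. Without read counts, depth gives no interval, and no library has a replicate. Embryos of the accessibility lists were combined by the authors, so their spread is unknown. Named genes are those nearest the 15 highest, 10 highest start, 3 highest unshared and 3 widest peaks, the 10 genes with most peaks, up to 4 members per gene list with those lacking a peak, and the genes at the 10 largest KO-higher and all WT-higher regions with RBBP7; peaks of 13 loci, counts of 5 or fewer and list members further down were added after values were seen. The members and gene lists were chosen with earlier results of these data known. Peak thresholds, start windows, overlap rules and list length were varied. Values at some list members and peaks are not reported here.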

Additional observations from a re-analysis of the deposited data

How the results depend on the processing

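Of 62 recomputed values, 31 stayed within counting error or on their side of 0.05, 29 moved, 2 lost significance and 0 reversed. The share of RBBP7 peaks at starts (14.7%) was 7.72% where −log10 q reached 10 and 2.38% where fold enrichment reached 10. It was 12.2% with a 500 bp window, 20.04% with 5 kb, 16.5% with either gene end, 15.4% with any base of the peak and, added after seeing the data, 15.3% without chromosome 18. The strongest decile moved from 2.68% only with the 5 kb window, to 5.76%. Under these settings the share of genes with RBBP7 at the start (12.6%) was 2.79% and 0.215% at the stricter thresholds, 10.8% and 15.7% with the 500 bp and 5 kb windows and 11.9% with either end. The share of RBBP7 peaks overlapping RBBP4 (65.5%) and the share overlapping no other list (32.6%) were 71.8% and 26.7% at the stricter q, 82.8% and 16.7% at the stricter fold, 62.9% and 35.0% by summit, 38.5% and 48.7% with a reciprocal overlap of 50%, and 33.9% and 56.1% at equal list length. FTneg KO-higher regions with RBBP7 (43.3%) were 29.3% at the stricter q, 12.1% at the stricter fold and 28.5% with reciprocal overlap. Their odds ratio of 12.7 was 1.99 at an area of at least 1000 and, added later, 3.41 (Fisher's exact test, p = 0.379) when the regions at Dlx1 and Dlx2 were left out as well, with 10 and 5 WT-higher regions; elsewhere it was 11.3 to 44.4, where the values 14.8, 42.7 and 44.4 rest on 0 of 53 WT-higher regions and an added constant of 0.5. The odds ratio of RBBP7 to RBBP4 at starts (0.412) was 0.401 to 0.440 under other start rules, 0.159 at equal list length and 0.172 with the stricter q in both lists. Stricter thresholds on the RBBP7 list alone gave 0.2 and 0.0582. No paired analysis was possible because each ChIP protein has 1 library and the accessibility lists combine the numbered embryos. Leaving out a replicate was not possible for the same reason.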
